A study of Homo sapiens with 21 samples.

Results

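Activator protein 1 (AP-1) genes and the immediate early genes measured with them were followed through TGFβ treatment of HMLE cells, an immortalized human mammary epithelial line. The 10 genes were chosen by symbol among the 23201 gene symbols of the deposited table. They are *FOS*, *FOSB*, *FOSL1* and *FOSL2* (the FOS subunits), *JUN*, *JUNB* and *JUND* (the JUN subunits), and *ATF3*, *EGR1* and *IER3*. Bulk RNA sequencing was made of untreated cells (d0) and of cells at d1, d4, d7, d10, d15 and d20 of TGFβ, with 3 libraries for each of the 7 timepoints and 21 in all. No genetic change separated the groups, all wells were seeded at the same density, and the dose of TGFβ and the hours between medium change and harvest are not given in the sources used here. The untreated cells were measured at one timepoint only, so days in culture and days of TGFβ cannot be told apart. The time course served the study as a model of epithelial-to-mesenchymal transition (EMT).

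AP-1 is a dimer of basic leucine zipper (bZIP) proteins. A JUN protein pairs with another JUN, with a FOS protein or with a related factor such as ATF3, and the dimer binds DNA at a short palindromic site. Immediate early genes are transcribed within minutes of a growth factor or stress signal without new protein synthesis. FOS and EGR1 are switched on by ERK signalling through serum response factor and its ETS partners, while JUN is activated by JNK and binds to its own promoter. Their RNAs are short-lived, so their level in an unsynchronized culture follows the signal of the last hours.

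Values are normalized read counts, that is the reads of a gene divided by one size factor per library, and the libraries held between 18847917 and 22667754 reads. Changes are log2 fold changes from limma on log2(value + 1), given with their standard error (SE), and "adjusted p" is the Benjamini-Hochberg value over the 13343 genes tested. All 10 genes were among them. The 6 comparisons with d0 share its 3 libraries. The third d7 library stood apart from its own group: over all genes tested, its root mean square difference from the other d7 libraries was 0.47 and 0.46 on the log2 scale, against 0.21 to 0.24 for every other pair of libraries of one timepoint. Changes of the 10 genes from d0 to d7 are therefore given with and without it, and those of other genes only in part. The third d7 library also enters the spread pooled over all libraries. Changes of the 10 genes against d0 on other days are therefore given without it where that changes a call. The epithelial label was checked on 7 mammary epithelial markers. *EPCAM*, a surface adhesion molecule of epithelial cells, was lower on all 6 days, from -0.98 at d1 to -2.83 at d7 on the log2 scale (-2.97 at d7 without the third library). *CDH1*, which encodes E-cadherin, was lower on 4 days and reached -1.33 at d20. The list did not move as one: *KRT14*, a basal keratin, was higher on 5 days (1.12 at d7) and *TP63*, a basal cell factor, was higher on 4 days and lower on 2. From d1 to d20 the numbers of markers higher were 2, 2, 2, 0, 3 and 1, and of those lower 3, 5, 2, 5, 4 and 5 (4 and 2 at d7 without the third library). All 6 mesenchymal markers were higher on all 6 days, and *FN1*, fibronectin, was 5.20 higher at d1 and 6.99 higher at d20. Of 6 leukocyte and endothelial markers 4 were too low to be tested, and *PTPRC* and *CDH5* had at most 1 read in any library. The 6 summed to 416 to 428 in untreated cells and to 551 to 555 after 1 day. The range was 799 to 836 at d4, 570.5 to 710.2 at d7 and 364 to 426 at d10, then 742 to 791 (d15) and 639 to 688 (d20). Nearly all of that was *CD68*, a lysosomal protein, with means of 371 at d0, 803 at d4, 379.6 at d10 and 753 at d15. *PECAM1*, an endothelial adhesion molecule and the other marker tested, was lower on all 6 days, from -1.43 at d10 to -2.10 at d15. Like *FOS*, *CD68* was higher at d4 and d15 than at d0 and d10, and its part in the results was not tested.

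RefSeq promoter sequences (GRCh38.p14) were held for 8 of the 10 genes, in 9 windows, with 2 for *ATF3*. The 250 bases before the start site are printed for the 3 genes whose RNA rose and fell together most widely (*EGR1*, *FOS* and *JUNB*) and for *JUN*, which rose and stayed high. Each is written 5′ to 3′ on the strand of the gene. Capitals mark matches, on either strand, to TGACGT (the core of the cAMP response element), TGACATCA (a variant AP-1 and ATF site), TATAAA or the CArG box, the sequence bound by serum response factor.
EGR1, chr5:138465229-138465478, plus strand: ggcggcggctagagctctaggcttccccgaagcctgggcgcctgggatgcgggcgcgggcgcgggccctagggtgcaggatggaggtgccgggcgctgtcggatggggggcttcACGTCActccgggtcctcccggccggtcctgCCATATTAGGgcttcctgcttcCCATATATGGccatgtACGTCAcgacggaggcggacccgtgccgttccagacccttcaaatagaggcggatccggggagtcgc
FOS, chr14:75278578-75278827, plus strand: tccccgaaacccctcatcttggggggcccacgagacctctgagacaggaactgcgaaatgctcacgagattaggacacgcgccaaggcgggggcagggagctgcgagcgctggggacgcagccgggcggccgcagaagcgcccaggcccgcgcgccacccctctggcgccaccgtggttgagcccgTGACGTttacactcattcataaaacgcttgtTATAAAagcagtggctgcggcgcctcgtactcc
JUNB, chr19:12791236-12791485, plus strand: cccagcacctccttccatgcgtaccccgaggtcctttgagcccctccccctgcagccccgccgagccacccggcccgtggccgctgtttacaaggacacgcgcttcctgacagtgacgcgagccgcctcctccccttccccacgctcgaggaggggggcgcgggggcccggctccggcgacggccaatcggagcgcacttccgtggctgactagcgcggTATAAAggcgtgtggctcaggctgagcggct
JUN, chr1:58784048-58784297, minus strand: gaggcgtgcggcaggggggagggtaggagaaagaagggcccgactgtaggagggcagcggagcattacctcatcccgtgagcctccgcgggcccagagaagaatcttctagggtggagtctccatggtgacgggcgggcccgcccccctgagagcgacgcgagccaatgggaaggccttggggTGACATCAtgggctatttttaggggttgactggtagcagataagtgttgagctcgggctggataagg
*EGR1* held 2 CArG boxes, between 105 and 96 and between 83 and 74 bases before the start site, and 1.16% of the 35116 promoter windows of the same length held any. *JUN* held TGACATCA between 67 and 60 bases before its start site, and so did 1 of the 2 *ATF3* windows. This site was present in 2.37% of all windows. TATAAA lay between 33 and 28 bases before the start of *FOS* and between 31 and 26 before that of *JUNB*, and it was found in 10.7% of all windows. The core TGACGT was present in the windows of *FOS*, *FOSB*, *FOSL2*, *JUND* and *EGR1* and in 7.10% of all windows. The full element TGACGTCA, which contains that core on both strands, was present for *JUND* alone among these genes and in 1.65% of all windows. The canonical AP-1 site TGAGTCA was found in none of the 9 windows and in 4.20% of all. These matches describe the letters of the windows only. Sites further upstream were not searched, for *FOS* or any other gene, and no binding was measured.

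Among the JUN subunits, *JUN* rose within 1 day of TGFβ and stayed high. Its values were 563, 537 and 485 in the untreated libraries and 3199.5, 3202 and 3283 at d1. They were 3116, 3158 and 3261 at d4, 5049.6, 5059 and 4307 at d7, and 3611, 3693 and 3470.4 at d10. At d15 they were 4493, 4472 and 4301, and at d20 3768, 3486 and 3075. Every one of the 18 treated libraries was above every untreated one. The rise was 6.11-fold at d1 (log2 2.61, SE 0.07, adjusted p = 1.44e-18) and widest at d7, at 9.07-fold (9.57-fold without the third library). In the order of the 7 means, d4, d1, d20 and d10 came next above d0, and neighbours among these days could not be separated. Further apart, d10 was above d4 (0.18, adjusted p = 0.0209). The d15 and d7 means lay above all of these.

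*JUNB*, which often opposes JUN on shared promoters, was also above untreated cells on every day, but it rose and fell between the days. It measured 1311, 1192 and 1288 at d0, 3524, 3228 and 3708 at d1, and 7005, 6987 and 7757 at d4. It then measured 5165, 4762 and 7736 at d7, and 2982, 3006 and 2782 at d10. At d15 the values were 10285, 9859 and 10043, and at d20 they were 5263, 3816 and 4016. The d15 libraries were the highest of the 21 and the d10 libraries the lowest of the treated ones. Against d0 the change was 5.73-fold at d4, 2.31-fold at d10 and 7.96-fold at d15 (log2 2.99, SE 0.12, adjusted p = 3.85e-15). *JUNB* overlaps *HOOK2* on the opposite strand in GENCODE, and whether the counting used strand is not given in the sources used here. The means of *HOOK2* were 532 at d0, 599 at d4 and 555 at d15.

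*JUND*, the JUN subunit usually made at a steady level, moved least of the 10. Its means lay between 513 at d1 and 1208 at d15. It was lower than untreated at d1 (log2 -0.26, SE 0.08, adjusted p = 0.00576), with all 3 libraries below those of d0. It was higher at d4 (0.46), d7 (0.76, and 0.78 without the third library) and d15 (0.98, adjusted p = 1.47e-10). At d10 the difference was -0.12 (adjusted p = 0.158) and at d20 0.22 (adjusted p = 0.0160). The d20 call was lost when all libraries were scaled to one total (0.02, adjusted p = 0.826), which moved the median of all genes by -0.14 to -0.20. It was also lost without the first (0.18) or the second (0.20) untreated library or the first d20 library (0.13).

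**Figure D1:**
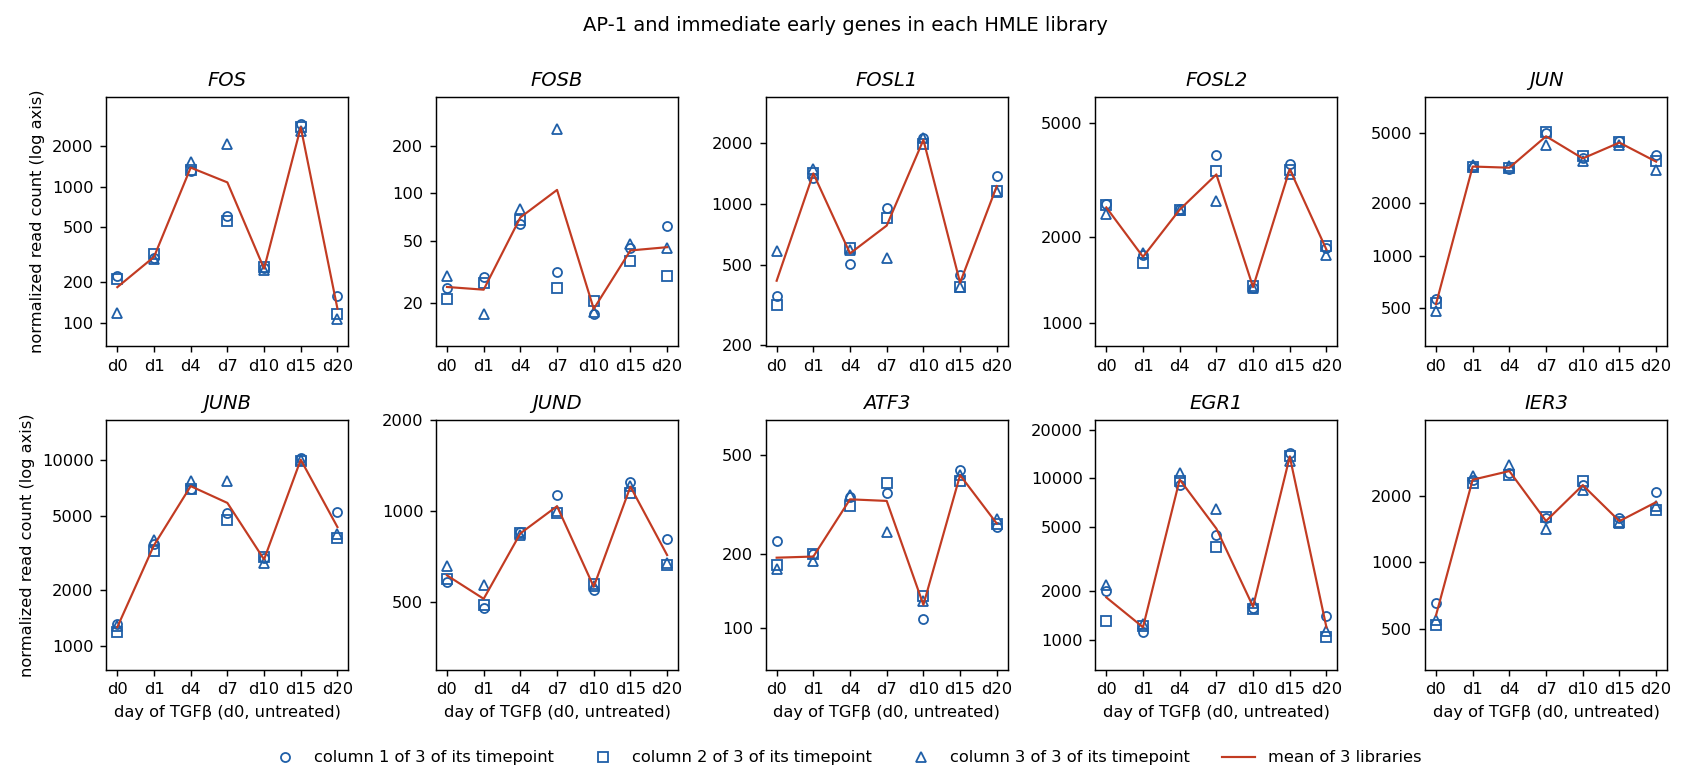
Normalized read counts (log axis) of the 10 genes in each of the 21 libraries by day of TGFβ; symbols are the libraries in the order of their columns and lines join the means of 3 libraries. *FOS*, *EGR1* and *JUNB* peak at d4 and d15 with means of 2731, 13615 and 10062 at d15, *FOSL1* peaks at d1, d10 and d20, and *JUN* and *IER3* stay above d0 in all treated libraries.

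Among the FOS subunits, *FOS* had the widest range of the 10 genes, 21.7-fold between its lowest and highest means. It measured 221, 209 and 117 at d0, 298, 318 and 296 at d1, and 1297, 1331 and 1506 at d4. It measured 606, 559 and 2055 at d7, and 249.8, 256 and 242 at d10. At d15 it measured 2865, 2760.4 and 2568, and at d20 158, 115 and 107. The d15 libraries were above all others, and the 3 d20 libraries and 1 untreated library were the lowest. *FOS* was 7.81-fold higher than untreated at d4 (log2 2.96, SE 0.31, adjusted p = 2.55e-08) and 15.5-fold higher at d15 (log2 3.95, adjusted p = 1.81e-10). At d7 it was 5.03-fold higher, and 3.31-fold higher without the third library. At d10 the difference was 0.50 (SE 0.31, adjusted p = 0.158) and at d20 -0.49 (adjusted p = 0.179). Without the third d7 library the SE of these differences was 0.12, and *FOS* was then called higher at d10 (adjusted p = 0.000462) and lower at d20 (adjusted p = 0.000719). The call at d1 (0.79, adjusted p = 0.0337) had an adjusted p of 6.60e-07 in that fit. It did not stand in edgeR on the recovered reads (0.71, adjusted p = 0.142) or without the third untreated library (0.50, adjusted p = 0.205). Leaving out any 1 of the d1 libraries also ended it, at 0.76 to 0.81 (adjusted p between 0.0632 and 0.0803). Without the third untreated library the d20 difference was -0.78 (adjusted p = 0.0470).

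*FOSL1*, which encodes FRA-1, a FOS protein made in response to sustained ERK signalling, was high on other days than *FOS*. It measured 352, 316 and 585 at d0, 1339.8, 1429.7 and 1489 at d1, and 508, 608 and 594 at d4. The values were 957, 853 and 539 at d7, and 2122, 1994 and 2129.7 at d10. They were 445, 389.8 and 389 at d15, and 1382, 1161 and 1142 at d20. The d1, d10 and d20 libraries were all above every library of the other 4 timepoints. *FOSL1* was 3.52-fold higher than untreated at d1, 5.17-fold at d10 (log2 2.37, SE 0.18, adjusted p = 1.72e-10) and 3.04-fold at d20. At d15 the difference was 0.02 (adjusted p = 0.926). At d4 it was 0.50 (adjusted p = 0.0169), with libraries that overlapped those of d0, and scaling all libraries to one total ended that call (0.30, adjusted p = 0.126). So did leaving out the first (0.40) or the second (0.32) untreated library, or the second (0.45) or the third (0.47) d4 library. At d7 it was 0.92, and 1.17 without the third library.

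*FOSL2*, which encodes FRA-2, and *FOSB*, which encodes a FOS protein best known from neurons, moved less. The means of *FOSL2* lay between 1333 at d10 and 3449 at d15. It was lower than untreated at d1 (-0.57), d10 (-0.93, SE 0.08, adjusted p = 1.67e-09) and d20 (-0.49), and higher at d7 (0.37, and 0.52 without the third library) and d15 (0.44). *FOSB* had the fewest reads of the 10, with values of 24.9, 21.2 and 29.7 at d0 and 64.2, 67.2 and 79.3 at d4. The d4 libraries were all higher than the untreated ones (log2 1.45, SE 0.52, adjusted p = 0.0164), and without the second untreated library the difference was 1.33 (adjusted p = 0.0525). At d7 *FOSB* measured 31.7, 25.0 and 259. Its call at d7 (1.22, adjusted p = 0.0432) rested on the third library, without which the difference was 0.16 (adjusted p = 0.575). It was also lost without any 1 of the untreated libraries (1.10 to 1.33, adjusted p between 0.0567 and 0.112). The *FOSB* differences at d15 and d20 were 0.76 (adjusted p = 0.188) and 0.77 (adjusted p = 0.202). Both were called without the third d7 library, with adjusted p of 0.00272 and 0.00285. *FOSB* overlaps *ERCC1* on the opposite strand, whose mean was 1384 at d0 and 1731 at d4.

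**Figure D2:**
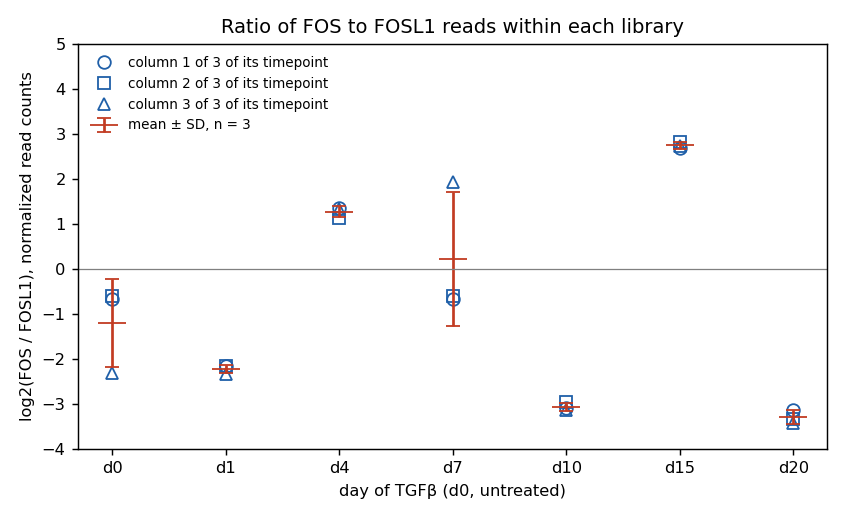
The log2 ratio of *FOS* to *FOSL1* normalized read counts within each library (y axis) by day of TGFβ (x axis), with the mean ± SD of 3 libraries in red. The means are 1.27 at d4 and 2.74 at d15, against -2.22 at d1, -3.06 at d10 and -3.30 at d20, and the third d7 library lies apart from the other two.

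Because *FOS* and *FOSL1* peaked on different days, their ratio was taken within each library, a choice made after their values were seen. The ratio is compared over time only, since counts of different genes also depend on gene length. On the log2 scale the untreated libraries gave -1.20 ± 0.98 (SD, n = 3). The ratio was 1.27 ± 0.12 at d4 and 2.74 ± 0.07 at d15. On other days it was low, with -2.22 ± 0.09 at d1, -3.06 ± 0.09 at d10 and -3.30 ± 0.15 at d20. At d7 the libraries gave -0.66, -0.61 and 1.93, the first and second of which lay within the untreated range. The libraries of d4 and d15 did not overlap with those of d0, d1, d10 or d20.

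*EGR1*, a zinc finger factor induced by ERK, was highest at d15 and next highest at d4, as *FOS* was. Its values were 1999, 1312 and 2181 at d0, 1125, 1218 and 1247 at d1, and 9071, 9582 and 10798 at d4. They were 4445, 3769.9 and 6428 at d7, and 1571, 1543 and 1702 at d10. At d15 they were 14345, 13704.5 and 12796, and at d20 1406, 1044 and 1135. The d4 and d15 libraries were above all others, and those of d1 were below all 3 untreated ones. *EGR1* was 5.47-fold higher than untreated at d4 and 7.60-fold at d15 (log2 2.93, SE 0.16, adjusted p = 4.49e-13). At d7 it was 2.66-fold higher, and 2.29-fold without the third library. It was lower at d1 (-0.58, adjusted p = 0.00395) and at d20 (-0.59, adjusted p = 0.00309), where 1 library lay within the untreated range. At d10 the difference was -0.16 (adjusted p = 0.400), and -0.38 without the second untreated library (adjusted p = 0.0302).

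*ATF3*, a bZIP factor of the stress response that pairs with JUN proteins, was also highest at d15, with smaller changes. On some other days it differed from *FOS* and *EGR1*. Its means at d4 and d7, 332 and 327, were not separated (adjusted p = 0.783). Those of *FOS* were not separated either (-0.63, adjusted p = 0.0954), while *EGR1* fell from d4 to d7 (-1.04, adjusted p = 1.96e-05). Without the third d7 library the d7 level of *ATF3* was 0.15 above that of d4 on the log2 scale (adjusted p = 0.194). In that fit the changes from d4 to d7 were -1.24 for *FOS* and -1.26 for *EGR1*. The untreated libraries of *ATF3* lay between 173 and 225. Those of d4 lay between 311 and 347, those of d7 between 244 and 386, those of d10 between 108 and 135 and those of d15 between 395 and 435. *ATF3* was therefore lower than every untreated library at d10 (log2 -0.63, SE 0.13, adjusted p = 0.000180) and higher at d15 (1.11, adjusted p = 6.89e-08). The difference at d7 was 0.74, and 0.94 without the third library. At d1 it was 0.02 (adjusted p = 0.880). At d20 it was 0.47 (adjusted p = 0.00317), which did not stand after scaling all libraries to one total (0.27, adjusted p = 0.0648).

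*IER3*, an immediate early gene that restrains apoptosis, rose and stayed high as *JUN* did. Its untreated libraries lay between 523 and 657. The lowest and highest values were 2278 and 2452 on d1, 2475 and 2753 on d4, 1420.3 and 1600.3 on d7, 2129.7 and 2340 on d10, 1507 and 1586 on d15, and 1726 and 2091 on d20. All 18 treated libraries were above the untreated ones. The difference was widest at d4, at 4.50-fold (log2 2.17, SE 0.08, adjusted p = 2.44e-16), and was 2.68-fold at d7 (2.78-fold without the third library) and at d15.

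**Figure D3:**
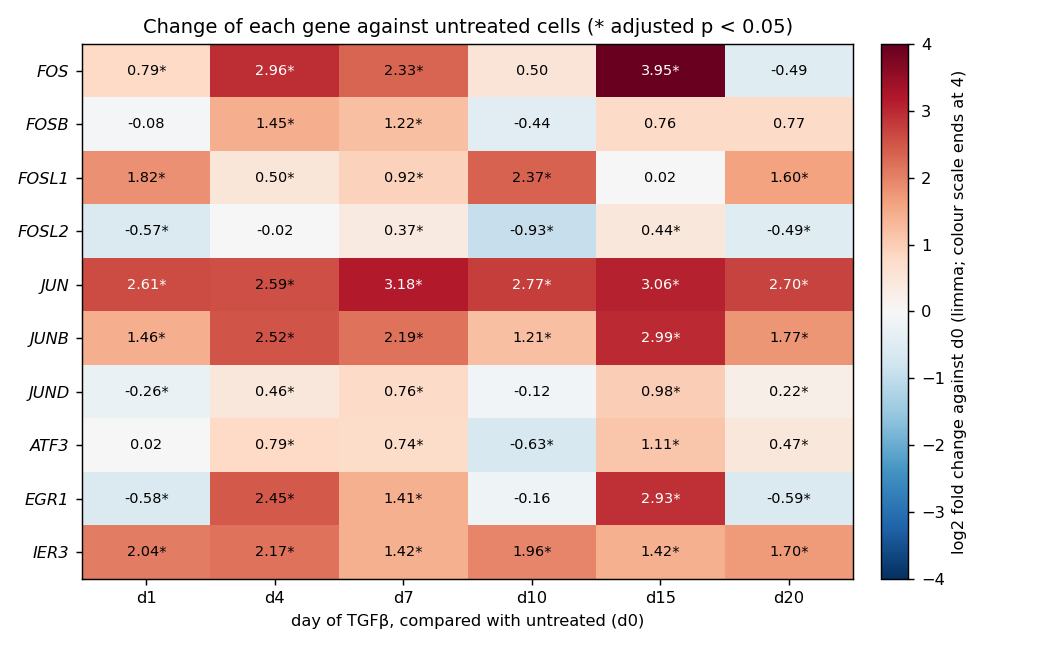
Log2 fold change of each of the 10 genes (rows) against untreated cells on each day of TGFβ (columns), from limma over 13343 genes; red is higher, blue is lower, and an asterisk marks an adjusted p under 0.05. *JUN*, *JUNB* and *IER3* are higher on all 6 days, whereas *FOSL2* and *EGR1* are lower on some days and higher on others.

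Counted together, 5 of the 10 genes were higher and 3 lower than untreated at d1, where 31.3% of all genes tested were called higher and 28.5% lower. At d4, 9 were higher and 0 lower (36.9% and 35.3% of all genes). On d7 the calls were 10 and 0 (34.6% and 32.6%), or 9 and 0 without the third library (36.8% and 34.4% in that fit). At d10 the calls were 4 and 2 (37.0% and 30.7%), against 8 and 0 on d15 (39.2% and 37.3%). By d20 *FOSL2* and *EGR1* were again low, so that 6 genes were higher and 2 lower (32.5% and 30.2%). The medians of the 10 changes were 0.41, 1.81, 1.31, 0.19, 1.27 and 0.62 from d1 to d20, beside medians between 0.00 and 0.03 over all genes tested. Without the third d7 library the calls were 5 and 2 at d10 (39.6% and 33.1% of all genes in that fit). They were 9 and 0 at d15 (41.0% and 38.9%) and 7 and 3 at d20 (35.4% and 33.3%). *FOS* and *FOSB* were the genes gained, in a fit that also called more of all genes. The calls were 5 and 3 at d1 (34.4% and 31.8%) and 9 and 0 at d4 (39.0% and 37.6%), the same counts as before.

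With a minimum of 2-fold in either direction, 4 of the 10 were called at d1 (10.3% of all genes), d10 (14.3%) and d20 (12.2%), and 6 of the 10 at d4 (14.7%), d7 (11.7%) and d15 (20.3%). All of these calls were for higher levels. *JUN*, *JUNB* and *IER3* were among them on all 6 days, *FOSL1* was the other at d1, d10 and d20, and *FOS* and *EGR1* joined them at d4, d7 and d15, with *FOSB* at d4 and d7 and *ATF3* at d15. Without the third library 6 were again called at d7, with *FOSL1* (1.17) in place of *FOSB*. The same 2-fold rule was applied between successive timepoints. From d1 to d4, 4 genes rose and *FOSL1* fell (6.17% of all genes called). From d4 to d7 *EGR1* alone fell (3.78%), and without the third d7 library 3 did, *EGR1*, *FOS* and *FOSB*. In edgeR on the recovered reads 0 were called in that step. From d7 to d10, 5 fell and *FOSL1* rose (12.7%), and without that library 4 fell. From d10 to d15, 7 rose and *FOSL1* fell (22.2%). From d15 to d20 *FOS*, *EGR1* and *JUNB* fell and *FOSL1* rose (15%). For *FOS* the last steps were the steepest: it was 10.9-fold higher at d15 than at d10 (adjusted p = 1.56e-09) after which it fell by 4.44 on the log2 scale to d20 (adjusted p = 4.54e-11).

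**Figure D4:**
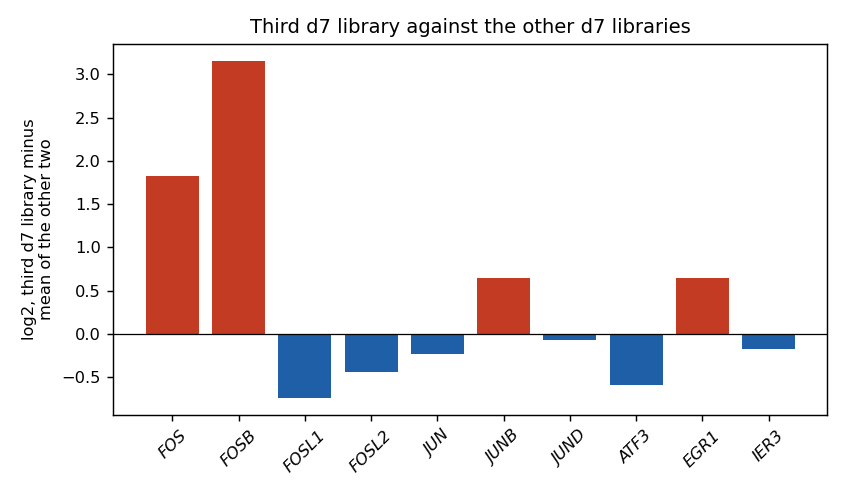
Log2 difference between the third d7 library and the mean of the other two d7 libraries (y axis) for each of the 10 genes (x axis). *FOSB* and *FOS* are 3.16 and 1.82 higher in that library, and for *FOSL1* the difference is -0.74.

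Within d7, the third library departed from the other two in a pattern of its own. *FOSB* was 8.91-fold and *FOS* 3.53-fold higher in it than the mean of the others, and *JUNB* and *EGR1* were 1.56-fold and 1.57-fold higher. *FOSL1*, *ATF3* and *FOSL2* were lower in it, with log2 differences of -0.74, -0.59 and -0.44. Over all genes tested, 1.02% were at least 2-fold higher and 3.19% at least 2-fold lower in that library. *DUSP6*, which encodes an ERK phosphatase, measured 394 in it against 1230.5 and 1292. *MAF*, which encodes a large bZIP factor, measured 320.2 against 1179 and 1142. The 7 mammary epithelial markers summed to 286400 in it, and to 486200 and 518600 in the others. That sum was mostly *KRT5* and *KRT14*, with log2 differences of -0.96 and -0.73. *EPCAM* and *KRT18* were higher in the third library (0.40 and 0.64), and for *CDH1*, *TP63* and *KRT8* the differences were -0.31, -0.12 and 0.03.

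The other genes of the pathway were described from lists. Their counts stand beside the shares of all genes tested, of which 31.3% to 39.2% were called higher and 28.5% to 37.3% lower on a given day. Of 15 kinases and factors upstream of *FOS* and *JUN*, 4 to 7 were higher and 1 to 3 lower than untreated on any day, with medians between 0.00 and 0.06, so that the share called higher was near that over all genes. *ELK3*, an ETS partner of serum response factor, was the widest and was higher on all 6 days, between 1.34 at d15 and 1.93 at d4. *MKL1*, an actin-regulated coactivator of serum response factor, was also higher on all 6 days, and reached 1.21 at d15. *MAP2K1*, which encodes the ERK kinase MEK1, was higher at d1 (0.94), d4 (0.39), d10 (1.00) and d20 (0.54) and lower at d15 (-0.17). At d7 the difference was 0.05 (adjusted p = 0.499), and -0.08 without the third library (adjusted p = 0.0508). Of 7 genes for proteins that degrade or restrain JUN, 2 or 3 were higher on each day, which was near the share over all genes. From 1 to 4 were lower, with 1 at d15 (37.3% of all genes) and 4 at d20 (30.2%). *FBXW7*, a ubiquitin ligase subunit that targets JUN, was higher at d4 (0.63), d7 (0.58, and 0.81 without the third library) and d15 (1.07) and lower at d10 (-0.28, adjusted p = 0.0460) and d20 (-0.32).

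Of 15 MAPK feedback genes tested, many of which are induced by ERK signalling and dampen it, 11 rose and 1 fell at d1. At d4, 11 rose and 2 fell. The counts were 5 and 2 at d7 (7 and 5 without the third library), 10 and 1 at d10, 6 and 3 at d15, then 10 and 2 on d20. *DUSP1*, a nuclear phosphatase of p38, JNK and ERK, was highest at d15 as *FOS* was. It measured 242, 204 and 168 at d0, 793, 829.6 and 778 at d4, 189, 212 and 181 at d10, and 2808, 2542 and 2582 at d15. Its d15 libraries were above all others (log2 3.70, SE 0.10, adjusted p = 1.22e-18), and the d10 difference was -0.07 (adjusted p = 0.552). Unlike *FOS* it was higher at d20 (0.73, adjusted p = 9.05e-07), where it measured 367, 317 and 331. *DUSP4* and *DUSP6*, which encode ERK phosphatases, were highest at d1 and d10, as *FOSL1* was. *DUSP4* was 2.52 higher at d1 and 2.7 at d10 but 0.36 at d15. *DUSP6* was 2.48 higher at d1, 2.67 at d10, 0.90 at d7 (1.46 without the third library) and 0.58 at d15 (adjusted p = 0.0516). At d4 the *DUSP4* and *DUSP6* differences were 1.86 and 2.26, so these genes did not share the low d4 level of *FOSL1*.

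**Figure D5:**
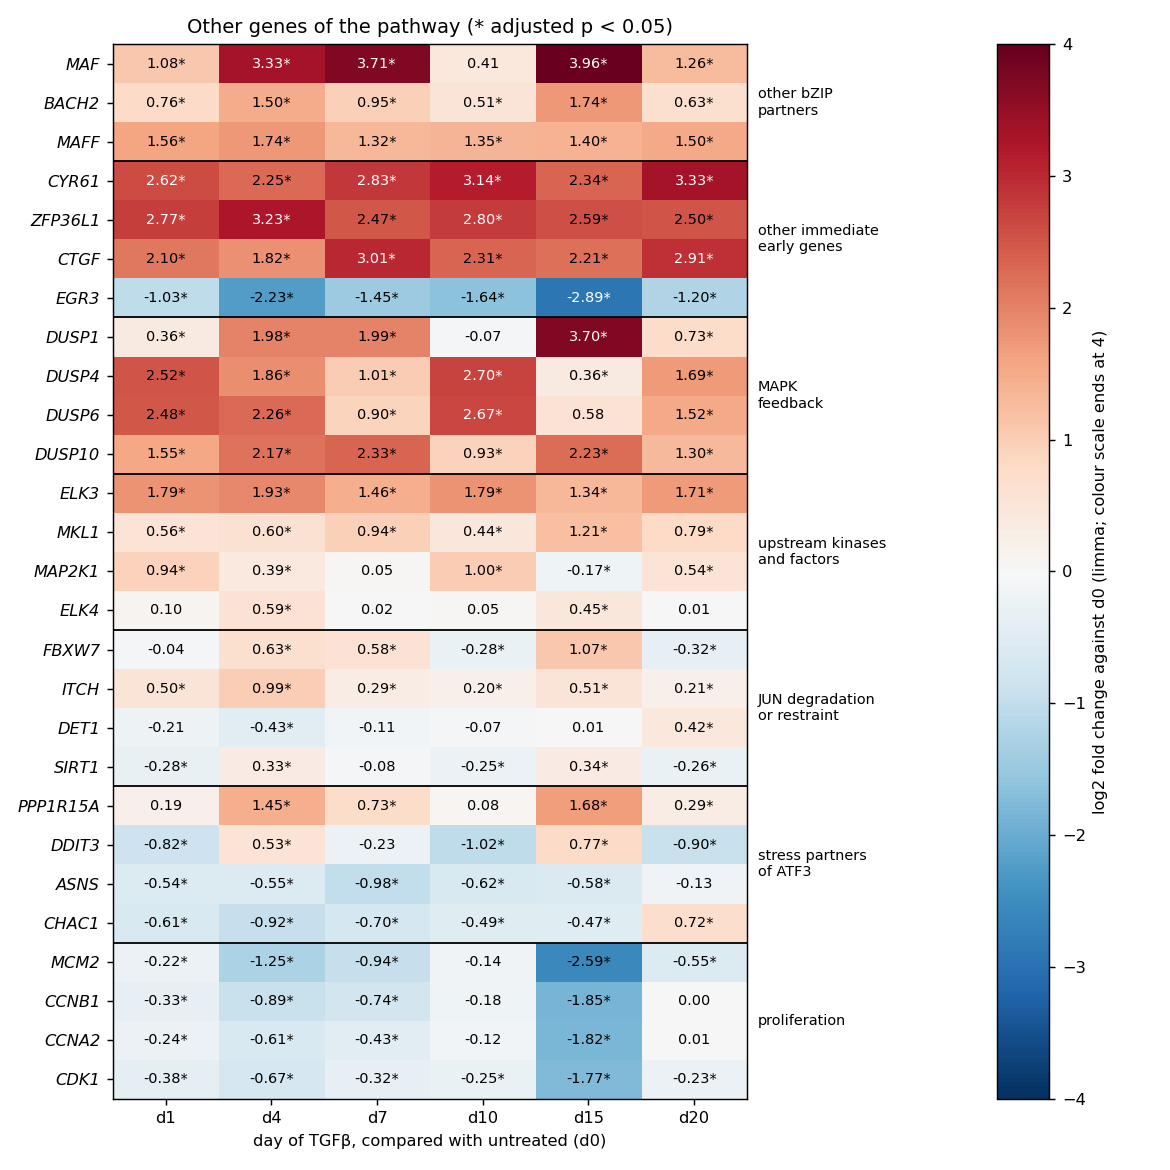
Log2 fold change against untreated cells by day of TGFβ (columns) for up to 4 genes of each list with the widest change (rows, grouped by list); colours and asterisks as in the map of the 10 genes. *DUSP1* and *MAF* are highest at d15 (3.70 and 3.96), *DUSP4* and *DUSP6* at d10 (2.7 and 2.67), and the proliferation genes are lowest at d15. For *MAF* this depends on the third d7 library, without which its d7 change is 4.33.

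Of 21 other immediate early genes tested, 14 to 18 were higher and 2 to 4 lower on each day, with medians between 0.70 at d1 and 1.35 at d15. *CYR61* and *CTGF*, matrix-associated secreted proteins, and *ZFP36L1*, an RNA-decay factor, were higher on all 6 days, *CYR61* by 2.25 at d4 to 3.33 at d20. *EGR3*, a relative of *EGR1*, went the other way and was lower on all 6 days. It measured 62.3, 42.4 and 119.7 at d0 and 12.2, 9.04 and 5.18 at d15 (log2 -2.89, SE 0.36, adjusted p = 2.16e-07), the day on which *EGR1* was highest. Of 13 other AP-1 and small bZIP partners tested, 12 were higher at d4 and 11 at d15, and 0 were lower on either day. On the other days 7 to 11 were higher and 0 to 2 lower. *MAF* measured 55.2, 57.7 and 57.4 at d0, 1179, 1142 and 320.2 at d7, 69.7, 85.5 and 72.4 at d10, and 943, 871 and 874 at d15. Its change was 3.71 at d7 and 3.96 at d15. Without the third d7 library the d7 change was 4.33, so its highest day depended on that library.

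Most genes described as AP-1 targets in other cells were higher than untreated on each day. Of 16 tested, 16 were higher at d1 and d10, 15 at d4, d7 and d20, and 13 at d15, and the medians lay between 1.01 at d15 and 2.16 at d20. *MMP9*, a matrix protease, was 7.67 higher at d4 and 5.24 at d15. At d7 1 was lower and at d15 2 were. They were *HMGA1*, a chromatin protein (-0.43 at d7, -0.73 without the third library, and -0.49 at d15), and *MMP1*, a collagenase with few reads (3 to 9 in the untreated libraries and 0 to 2 in those of d15). These genes are also targets of other TGFβ-driven factors. All 9 genes tested from a list of TGFβ and SMAD targets were higher on every day but d10, when 7 were. *SMAD7*, the inhibitory SMAD, was 2.29 to 3.10 higher. Of 8 stress partners of *ATF3*, 1, 2, 2, 1, 5 and 5 were higher from d1 to d20 and 5, 2, 5, 5, 2 and 1 lower, where 31.3% to 39.2% of all genes were higher and 28.5% to 37.3% lower. At d7 most of them were lower while *ATF3* was higher. *PPP1R15A*, a phosphatase subunit of the stress response, was 1.45 higher at d4 and 1.68 at d15, and 0.08 at d10 (adjusted p = 0.3972). The 2 stress partners counted as lower at d4 and at d15 were *ASNS* (-0.55 and -0.58) and *CHAC1* (-0.92 and -0.48).

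Proliferation genes were lowest at d15 and next lowest at d4, the days on which *FOS* was highest. Of 8, 6 were lower on d1, 8 on d4, d7 and d15, 2 on d10 and 3 on d20, with medians of -0.27, -0.70, -0.51, -0.13, -1.73 and 0.00. At d15 all 8 were at least 2-fold lower, and the change of *MCM2*, a subunit of the replicative helicase, was -2.59. The summed level of the 8 was 55330 to 56960 in untreated cells and 54690 to 56810 after 20 days. In between it was 33250 to 34930 (d4), 38800 to 51000 (d7), 49270 to 50240 (d10) and 18600 to 19150 (d15), the highest d7 value being that of the third library. In that library, where *FOS* was highest within d7, the median log2 difference of the 8 genes from the other d7 libraries was 0.36. The difference was 0.76 for *MKI67* and 0.83 for *CCNB1*, and -0.09 for *PCNA* and -0.02 for *CDK1*. These values come from a single library that stood apart from its group. Of 8 heat shock genes, 5, 2, 3, 5, 2 and 2 were higher from d1 to d20 and 1, 5, 4, 2, 6 and 5 lower (3 and 5 at d7 without the third library), beside the same shares of all genes. Their medians were -0.87 at d15 and 0.38 at d10. The part of cell cycling in the levels of the 10 genes was not tested. In bulk RNA, fewer cells expressing a gene and less RNA per cell cannot be told apart.

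The 3 genes whose 7 timepoint means ran most like those of each wide-ranging member were taken from 5217 genes with a range of at least 2-fold. Pearson's r over the 7 means served as the measure of likeness. For *FOS* they were *ZFP36* (r = 0.991), *MT1X* (0.988) and *ST6GAL1* (0.986), with ranges between 1.14 and 1.81 on the log2 scale. For *EGR1* they were *NT5M* (0.994), *ZKSCAN1* (0.994) and *NFKBIL1* (0.992). For *JUN* they included *PDLIM7* (0.998) and *ADAMTS15* (0.993), and *ADAMTS15* ranged from 13.4 at d0 to 652 at d7. With 7 points from the same libraries, these values rank the genes and carry no test.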

How the data were processed

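The deposited table held one normalized signal per gene symbol and library, which the authors made by dividing read counts by a size factor per library (2 decimals). The submitters' processing notes name STAR 2.7, Salmon 1.4 and hg19, without their roles. Annotation, counting and strandedness are not given in the sources used here, so genes are named by symbol and the only coordinates are those of the RefSeq promoters (GRCh38.p14). Whole reads were recovered in all 21 libraries (tolerance 0.01). The labels call the libraries replicates and the study calls them biological triplicates.

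The fit used limma 3.58.1 (R 4.3.3) with 1 mean per timepoint and a trended variance, on the log2 of the value plus 1, for the 13343 of 23201 genes whose mean reached 10. Benjamini-Hochberg adjustment was made within each contrast, and the threshold was 0.05. The single-gene permutation test planned for genes below the filter was not needed. The members, lists and tests were chosen with earlier results of these data known. All 10 members are named, with at most 4 genes per list and the 3 genes most like each of the 3 widest-ranging members. The list genes had the widest change against d0 among those past the test. They also had a mean of at least 50 in 1 timepoint. *PTPRC*, *CDH5*, *PECAM1*, *HOOK2*, *ERCC1*, *KRT14*, *KRT8*, *TP63*, *HMGA1*, *MMP1*, *PCNA* and *MKI67* were named after their values were seen. Some genes that this rule names are not reported here. The script was tested on simulated data. Alternatives were a pseudocount of 10, no filter, rescaled or quantile-normalized libraries, 2 timepoints per fit, edgeR 4.0.16 and DESeq2 1.42.0 on the recovered reads, and each library left out, with the third d7 library also left out of the fit for other days. Libraries held 18847917 to 22667754 reads, and precision was lowest for *FOSB*. Figures were drawn with matplotlib.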

Additional observations from a re-analysis of the deposited data

Results flagged for a closer look

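For 4 genes the change against untreated cells had opposite signs on different days, each past the test. *EGR1* was higher at d15 (2.93) and lower at d20 (-0.59), a difference of 3.52 on the log2 scale. *ATF3* was higher at d15 (1.11) and lower at d10 (-0.63), a difference of 1.74. *FOSL2* was higher at d15 (0.44) and lower at d10 (-0.93), a difference of 1.37. *JUND* was higher at d15 (0.98) and lower at d1 (-0.26), a difference of 1.24. The days of each pair were those with its highest and lowest change against the same untreated libraries, chosen after the calls were known. The differences are therefore a description, and no test of them is given.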

How the results depend on the processing

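The count of genes changed at least 2-fold from d4 to d7 was the only one of the 11 counts that moved by over 1.5 times, from 1 to 0 in edgeR. With libraries left out in turn it ranged from 0 (without the third d4 library or the first or the second d7 library) to 3 (without the third d7 library). Small differences for 2 genes that passed no test changed sign. *FOSL1* at d15 went from 0.02 to -0.14 after all libraries were scaled to one total, to -0.043 in edgeR and to -0.027 in DESeq2. *ATF3* at d1 went from 0.02 to -0.17 after rescaling and -0.0048 in edgeR. With libraries left out, *FOSB* at d1 ranged from -0.23 to 0.15, *FOSL1* at d15 from -0.15 to 0.29 and *ATF3* at d1 from -0.048 to 0.14. Among the 60 single-gene changes against d0, 396 of the values from other settings kept direction and call, 11 lost the call, 8 gained it and 5 changed sign. With libraries left out, 381 kept both, 16 lost the call, 6 gained it and 7 changed sign. Of those gained, *FOS* at d10 and d20 and *FOSB* at d15 and d20 passed the test without the third d7 library, an alternative chosen after seeing the data, because their pooled error was then smaller and their differences the same. Leaving out a library leaves 2 in its group, and its spread was pooled over all groups. No paired analysis was possible because the table's headers name the timepoint and not the replicate. *FOSB*, with few reads, was the least precise.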
